A study of Mus musculus with 8 samples.

Results

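The subject here is a set of 38 genes of mitochondrial and peroxisomal fatty acid oxidation in the mouse heart, taken by symbol from a table of 22518 genes and arranged by step from activation of the fatty acid to electron transfer. All 38 symbols were found once in the table. The libraries were made from whole hearts of C57BL/6 mice aged P12 (12 days after birth): 4 came from wild type mice and 4 from littermates with an endothelial knockout of PHD2 and PHD3, the oxygen-dependent prolyl hydroxylases that mark hypoxia-inducible factors (HIF) for degradation. No treatment is named, and the labels do not give the promoter that drives the deletion, any allele the controls also carry, or whether each library came from 1 animal. The set is wider than its name: it also holds the fatty acid carrier Fabp3, membrane transporters, thioesterases, the uncoupling protein genes Ucp2 and Ucp3, and Pdk4.

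Fatty acids are the main fuel of the heart after birth. A long-chain fatty acid is joined to coenzyme A by an acyl-CoA synthetase, passed to carnitine by CPT1, carried through the inner mitochondrial membrane by the SLC25A20 translocase, and returned to coenzyme A by CPT2. Each turn of beta oxidation then shortens the acyl chain through a dehydrogenase, a hydratase, a second dehydrogenase and a thiolase, and the electrons taken by the acyl-CoA dehydrogenases reach the respiratory chain through ETF (Etfa and Etfb) and its oxidoreductase (Etfdh). Many of these genes are known targets of PPAR and ERR nuclear receptors.

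Values are FPKM (fragments counted per length of transcript and per library size) that the authors quantile normalised, so libraries share nearly the same set of values and the sequencing depth is unknown. Genes whose mean over the 8 hearts reached 1 FPKM, 11390 in all, were tested with limma on log2(FPKM + 1), and a gene was called at an adjusted p under 0.05. Log2 changes are knockout minus wild type ± SE on that scale, which understates the change of low genes, and group values are means ± SD with n = 4. Transcripts of the targeted genes were not reduced and so give no check of the labels in whole-heart RNA: Egln1 (PHD2) was at 45.2 to 57.9 FPKM in wild type and 52.6 to 63.5 FPKM in knockout hearts (adjusted p = 0.442), and Egln3 (PHD3) at 18.0 to 38.7 and 32.6 to 52.8 FPKM (adjusted p = 0.132). Knockout replicate 4 lay farthest from the wild type on the first principal component of all tested genes, at 31.6 against 6.18 to 18.6 for the other knockout hearts, and its library number stands apart in the labels. In whole-heart RNA, fewer cells of a type and less RNA per cell cannot be told apart. P-values measure the spread between these libraries.

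RefSeq promoters on GRCm38.p6 were matched by symbol for 33 of the 38 genes (not Acot13, Cpt1b, Acaa2, Crat or Decr1), in 36 windows of 300 bases that run from 250 bases before to 50 bases after a start site. Shown first are the upstream stretches of the 2 genes whose fall held in every omission of a heart, Cpt2 (chr4:107923611-107923839, minus strand) and Etfb (chr7:43443822-43444071, plus strand), and the intergenic stretch between the divergent genes Hadha and Hadhb (chr5:30155163-30155247, plus strand), which encode both subunits of the mitochondrial trifunctional protein. Each is printed 5′ to 3′, with CG pairs in capitals.
Cpt2 upstream: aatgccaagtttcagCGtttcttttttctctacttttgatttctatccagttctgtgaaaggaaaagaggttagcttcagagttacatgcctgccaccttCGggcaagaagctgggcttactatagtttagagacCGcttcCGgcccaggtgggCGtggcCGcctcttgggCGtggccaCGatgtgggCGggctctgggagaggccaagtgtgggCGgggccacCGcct
Etfb upstream: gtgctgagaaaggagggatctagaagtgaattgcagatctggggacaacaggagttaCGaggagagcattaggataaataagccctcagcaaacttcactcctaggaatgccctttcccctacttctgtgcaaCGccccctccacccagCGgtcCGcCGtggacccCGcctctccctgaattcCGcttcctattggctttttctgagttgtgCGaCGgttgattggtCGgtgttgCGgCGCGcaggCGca
Hadha to Hadhb: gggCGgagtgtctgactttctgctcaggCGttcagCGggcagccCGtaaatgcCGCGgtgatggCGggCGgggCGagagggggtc

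These stretches held 11, 14 and 9 CG pairs in 229, 250 and 85 bases. Over the 250 bases before the start, the windows of the set had a median of 12 CG pairs, against 16 for all tested genes with a promoter entry and 6 for all 32851 promoters. Both strands were searched for 4 motifs that may overlap each other. The core of the hypoxia response element, ACGTG, was in 3 of the 36 windows (8.33%), those of Acacb, Acadvl and Slc27a1, against 19.6% of all promoters. The nuclear receptor element AGGTCA was in 6 windows (16.7%), those of Acacb, Acadm, Acadvl, Cpt1a, Echs1 and Ucp3, against 16.3% of all promoters. The longer ERR site, TCA directly before AGGTCA, was in 0 windows (0.423% of all promoters), and DR1, in which 2 AGGTCA elements stand 1 base apart, also in 0 (0.0396%). No window of a called gene held a match, which says only that these letters are not in that window.

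Most of the pathway did not pass the test, which does not show that it was unchanged. In simulated data the fit recovered 52.2% of 1.5-fold changes. The simulation drew each gene independently and gave 171 calls in all, against 1385 in these data. Its share therefore need not hold for these hearts. All 38 genes reached 1 FPKM, and of these 1 rose, 5 fell and 32 were not called: Acsl4 rose, and Cpt2, Etfb, Eci1, Acaa1a and Ucp2 fell. The share called was 15.8%, near the background of 12.2% of all tested genes. By direction, 2.63% of the set rose against 6.15% of all tested genes, and 13.2% fell against 6.01%. The groups did not overlap in 5 genes of the set (13.2%), against 20.7% of all tested genes: 1 gene lay higher in knockout hearts (10.3% of all tested genes did) and 4 lower (10.4%). The median log2 change of the set was 0.02, that of all tested genes -0.01, and 19 members lay above 0 and 19 below. Under a scaling of each library to its summed cardiomyocyte markers, which moved the median of all genes by 0.105 on the log2 scale, 24 members lay above 0, and Acsl4, Cpt2 and Etfb remained called. That scaling also changed the split of all calls, from 50.6% to 69.0% raised.

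**Figure D1:**
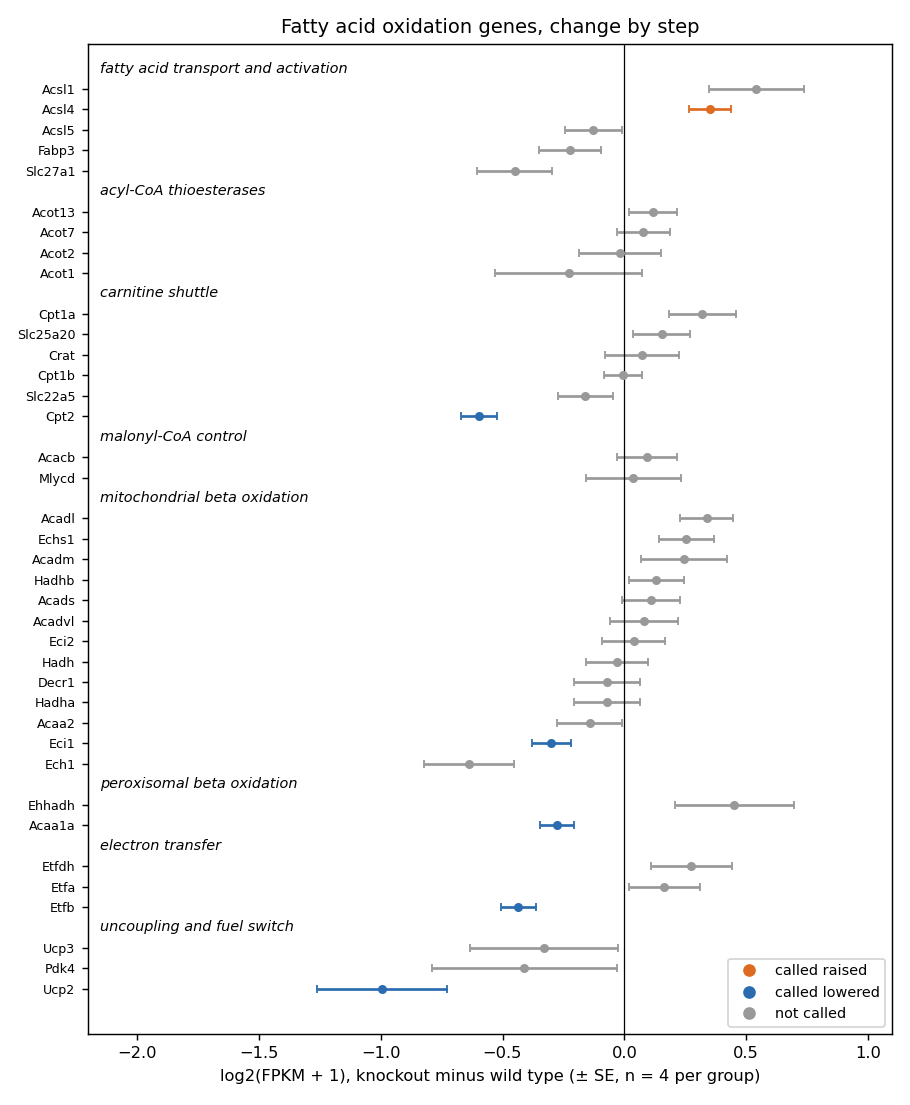
Difference in log2(FPKM + 1), knockout minus wild type, of the 38 genes by step, with bars of ± 1 SE from limma (n = 4 hearts per group); orange marks the gene called raised, blue those called lowered and grey those not called. Points lie on both sides of 0 in most steps, from -0.99 for Ucp2 to 0.54 for Acsl1.

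In transport and activation, 1 of 5 genes rose and 0 fell. Acsl4, a synthetase that prefers arachidonic acid (chromosome X, 142317993 to 142390535 in mm10), had levels of 3.51, 3.34, 3.73 and 3.90 FPKM in the wild type hearts, listed here and throughout from replicate 1 to replicate 4, and of 4.27, 5.24, 5.19 and 4.90 FPKM in the knockout hearts. Every knockout heart was above every wild type heart, with a log2 change of 0.35 ± 0.09 (adjusted p = 0.0303) and a mean level 1.35-fold that of wild type. Leaving out any of wild type hearts 1, 2 and 3 or knockout hearts 2 and 3 ended this call (adjusted p 0.0643 to 0.0971). Fabp3, the cytosolic fatty acid carrier of muscle and the most abundant gene of the set, was at 4725, 6459, 4725 and 6459 FPKM in wild type and 5365, 4184, 4725 and 4725 FPKM in knockout hearts. The repeated values are ranks that quantile normalisation gave the same number, the groups overlapped, and the gene was not called (adjusted p = 0.275). Acsl1, the main acyl-CoA synthetase of heart muscle, had a log2 change of 0.54 ± 0.19, the highest of the set on the log2(FPKM + 1) scale. It went from 176 ± 39.6 to 257 ± 60.7 FPKM but was not called (adjusted p = 0.0957). The ratio of means was higher for the low gene Ehhadh (1.63 against 1.46 for Acsl1), which was not called either. The membrane transporter Slc27a1 (FATP1) had a log2 change of -0.45 ± 0.15 (adjusted p = 0.0846), and Acsl5 one of -0.13 ± 0.12.

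The thioesterases, which split acyl-CoA back to fatty acid and coenzyme A, gave 0 calls among 4 genes, with 0 at an unadjusted p under 0.05. Acot13, the most abundant, was at 295, 318, 314 and 303 FPKM in wild type and 347, 338, 277 and 384 FPKM in knockout hearts, so that 3 knockout hearts were above the wild type range and 1 below it. The changes of the 4 genes ran from -0.23 to 0.12 on the log2 scale. Acot1 and Acot2 lie next to each other on chromosome 12, and 23.9% of the 50-base words of the longest Acot1 transcript also occur in Acot2, so reads could have been divided between them. Acot1 varied most within groups, from 20.3 to 40.0 FPKM in wild type and from 15.7 to 38.1 FPKM in knockout hearts.

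In the carnitine shuttle, 0 of 6 genes rose and 1 fell. Cpt2, the inner membrane enzyme that returns the acyl group to coenzyme A (chromosome 4, 107903981 to 107923610), was at 96.9, 99.4, 94.0 and 100 FPKM in wild type and at 70.9, 61.8, 65.1 and 59.7 FPKM in knockout hearts. The wild type hearts lay within 1.07-fold of each other, and every knockout heart was lower. The log2 change was -0.60 ± 0.07 (adjusted p = 0.00184), a fall to 65.9% of the wild type mean and the lowest adjusted p of the set. Cpt1b, the muscle form of the outer membrane enzyme that commits acyl groups to the mitochondrion, was at 239, 219, 215 and 225 FPKM in wild type and 212, 204, 241 and 239 FPKM in knockout hearts, with overlapping ranges (log2 change -0.00 ± 0.08, adjusted p = 0.977). Of the 50-base words of the longest Cpt1b transcript, 93.0% also occur in the GENCODE gene model Gm44502, which is not among the genes listed. The value of Cpt1b thus rests on how the authors' annotation treated that model. Cpt1a, the liver form that is also expressed in the young heart, was at 20.1, 15.0, 18.2 and 20.3 FPKM in wild type and 18.3, 22.0, 26.0 and 26.9 FPKM in knockout hearts. It was not called (log2 change 0.32 ± 0.14, adjusted p = 0.152), except without knockout replicate 1, the only knockout heart within the wild type range (0.43, adjusted p = 0.0435).

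The other shuttle genes, the translocase Slc25a20, the carnitine transporter Slc22a5 and the carnitine acetyltransferase Crat, had log2 changes of 0.15, -0.16 and 0.07 and were not called. The genes of malonyl-CoA, the inhibitor of CPT1, were not called either. Mlycd, which degrades it, was at 51.4, 44.0, 47.9 and 58.5 FPKM in wild type and 40.5, 43.9, 48.9 and 80.7 FPKM in knockout hearts, with knockout replicate 4 above all others. Acacb, which makes it at the mitochondrial surface, was at 29.6 ± 3.26 and 31.8 ± 5.38 FPKM.

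**Figure D2:**
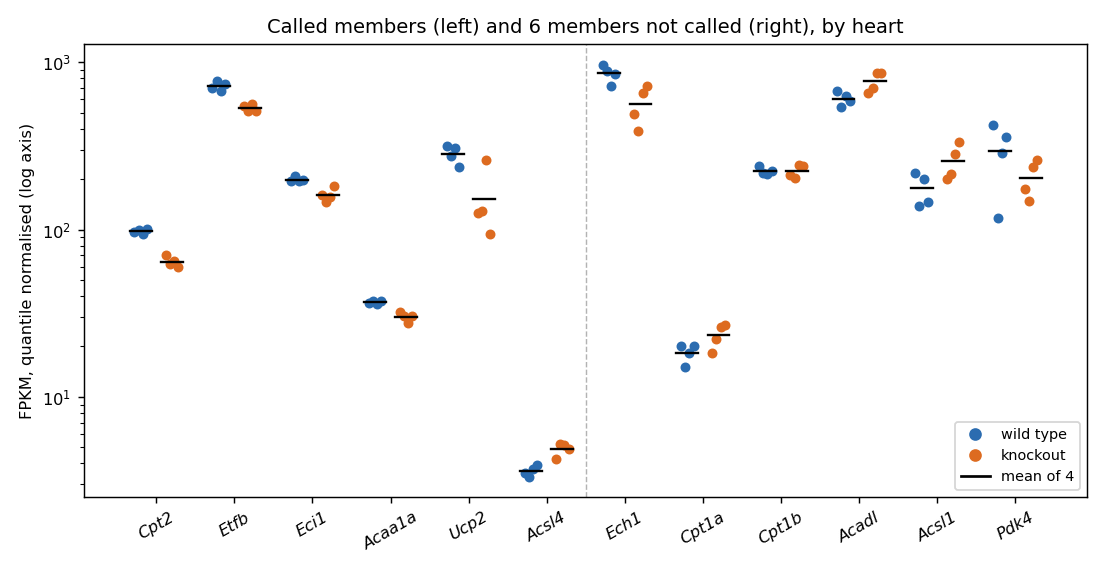
Quantile-normalised FPKM on a log axis of the 6 called genes (left of the dashed line) and 6 genes that were not called (right); each point is 1 heart (wild type blue, knockout orange), with a black line at the mean of each group. Cpt2, Etfb, Eci1, Acaa1a and Acsl4 separate the groups, Ucp2 overlaps through knockout replicate 3, and Cpt1b has the same mean level in both groups to within 1 FPKM (224 in each).

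Of the 13 genes of mitochondrial beta oxidation, 0 rose, 1 fell and 12 were not called. Eci1, the isomerase that moves double bonds of unsaturated fatty acids into place (chromosome 17, 24426641 to 24439348), fell from 195, 208, 195 and 197 FPKM in wild type to 161, 145, 157 and 183 FPKM in knockout hearts. The groups did not overlap, and the log2 change was -0.30 ± 0.08 (adjusted p = 0.0393). Of the 8 fits that each left out 1 heart, the call survived the loss of knockout replicate 4 alone (adjusted p 0.0545 to 0.121 in the other 7). Ech1, another auxiliary enzyme for unsaturated fatty acids, was chosen after its values were seen: it was at 968, 887, 722 and 852 FPKM in wild type and 493, 387, 654 and 722 FPKM in knockout hearts. Its groups met at 722 FPKM and it missed the threshold (log2 change -0.64 ± 0.18, adjusted p = 0.0517), passing it without knockout replicate 4 (-0.77, adjusted p = 0.0217).

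The acyl-CoA dehydrogenases, which open each turn of the cycle for long, medium and short chains, were not called. Acadvl, for very long chains, was at 566, 475, 501 and 450 FPKM in wild type and 465, 437, 540 and 693 FPKM in knockout hearts (log2 change 0.08 ± 0.14). Acadm, for medium chains, was at 433, 327, 427 and 321 FPKM in wild type and 384, 352, 465 and 610 FPKM in knockout hearts (log2 change 0.24 ± 0.18, adjusted p = 0.387). In both genes knockout replicate 4 was the highest of the 8 hearts. Knockout replicate 3 also lay above the wild type range for Acadm, and knockout replicate 2 lay below it for Acadvl. The remaining knockout hearts were within the wild type range. Acadl, for long chains, had a log2 change of 0.34 ± 0.11 (adjusted p = 0.0742), which passed the threshold without knockout replicate 1 (0.41, adjusted p = 0.0324). Acads, for short chains, had a log2 change of 0.11 ± 0.12.

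The later reactions of the cycle were not called. Hadha, the subunit of the trifunctional protein with hydratase and dehydrogenase activity, was at 556, 388, 466 and 395 FPKM in wild type and 393, 367, 454 and 497 FPKM in knockout hearts (log2 change -0.07 ± 0.13). Hadhb, the thiolase subunit and the highest of the 13 by the mean over all 8 hearts (though below Ech1 in the wild type mean and below Acadl in the knockout mean), was at 835, 590, 696 and 636 FPKM in wild type and 705, 688, 776 and 835 FPKM in knockout hearts (log2 change 0.13 ± 0.11). For both genes the highest wild type heart was replicate 1 and the highest knockout heart replicate 4. Of the 50-base words of Hadhb, 61.5% also occur in the gene model Gm13910, also not among the genes listed, so the value of Hadhb likewise rests on the annotation used. The hydratase Echs1, the dehydrogenase Hadh, the thiolase Acaa2, the isomerase Eci2 and the reductase Decr1 had log2 changes between -0.14 (Acaa2) and 0.25 (Echs1), with an adjusted p of at least 0.168.

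In the peroxisome, which shortens very long chains, 1 of 2 genes fell. Acaa1a, a peroxisomal thiolase (chromosome 9, 119339676 to 119350299), fell from 36.2, 37.3, 35.7 and 37.5 FPKM to 32.3, 30.2, 27.7 and 30.2 FPKM, without overlap (log2 change -0.28 ± 0.07, adjusted p = 0.0338). The call survived the omission of knockout replicate 1 or 4 but not of any of the other 6 hearts (adjusted p 0.0649 to 0.0991), and 34.0% of its 50-base words occur in the paralog Acaa1b, so its value is uncertain. Acaa1b itself was at 3.38 to 3.89 FPKM in wild type and 2.70 to 3.33 FPKM in knockout hearts and was not called (adjusted p = 0.138). The bifunctional enzyme Ehhadh, the lowest gene of the set, was at 2.33 to 2.82 FPKM in wild type and at 2.12, 3.77, 3.67 and 7.35 FPKM in knockout hearts. It was not called (adjusted p = 0.245), except without knockout replicate 1, its only knockout value below the wild type range (log2 change 0.67, adjusted p = 0.0433).

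In electron transfer, 1 of 3 genes fell. Etfb, the beta subunit of the electron transfer flavoprotein (chromosome 7, 43444083 to 43457800), was at 700, 768, 674 and 736 FPKM in wild type and at 544, 510, 566 and 508 FPKM in knockout hearts. Every knockout heart was lower, and the log2 change was -0.43 ± 0.07 (adjusted p = 0.00574), a fall to 73.9% of the wild type mean. The longest Etfb transcript shares 67.3% of its 50-base words with the gene model Gm45233, which is not among the genes listed. The value of Etfb thus rests on how the authors' annotation treated that model. The alpha subunit gene Etfa was at 389 ± 43.9 and 441 ± 96.7 FPKM (log2 change 0.16 ± 0.14), and the oxidoreductase gene Etfdh at 253 ± 33.5 and 311 ± 76.5 FPKM (log2 change 0.28 ± 0.16). Neither was called.

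Ucp2 had the largest fall of the set and the widest spread among the called genes. This mitochondrial carrier of the uncoupling protein family (chromosome 7, 100493337 to 100502020) was at 314, 276, 309 and 238 FPKM in wild type and at 126, 129, 261 and 94.1 FPKM in knockout hearts, so that knockout replicate 3 lay within the wild type range and the other 3 far below it. The log2 change was -0.99 ± 0.27 (adjusted p = 0.0437). Without knockout replicate 3 the change was -1.29 (adjusted p = 0.00184), and the omission of any of the other 7 hearts ended the call (adjusted p 0.0642 to 0.106). Ucp2 is also expressed by blood and immune cells. The erythroid markers present in the table summed to 1209, 1849, 6169 and 2718 FPKM in wild type and 649, 1105, 1568 and 192 FPKM in knockout hearts. Among the knockout hearts these sums were lowest and highest in the same hearts as Ucp2. The wild type hearts did not share this order: the sum was lowest in replicate 1, where Ucp2 was highest. All 3 erythroid markers that were tested had a lower mean in knockout hearts but 0 of 3 was called. The leukocyte markers summed to 113 to 130 FPKM in wild type and 137 to 154 FPKM in knockout hearts. Of the 7 leukocyte markers tested, 3 had a log2 change above 0 and 4 below. The part of either cell type in the value of Ucp2 was not tested.

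The muscle form Ucp3 and the kinase gene Pdk4, whose product blocks pyruvate dehydrogenase and so spares glucose, were not called. Pdk4 was at 419, 117, 285 and 357 FPKM in wild type and 175, 149, 235 and 259 FPKM in knockout hearts. Its wild type values spanned 3.59-fold, and all knockout values lay inside them (log2 change -0.41 ± 0.38, adjusted p = 0.506). Ucp3 had a log2 change of -0.33 ± 0.30.

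Relative levels of partner genes were compared within each heart for 5 pairs, with a two-sided exact permutation test that has 70 splits and a smallest p of 0.0286. The ratio of Etfa to Etfb was 0.592, 0.474, 0.648 and 0.465 in wild type and 0.703, 0.714, 0.780 and 1.14 in knockout hearts. Every knockout ratio was higher (difference of log2 ratios 0.60 ± 0.20, exact permutation p = 0.0286, adjusted over the 5 ratios 0.0714). The ratio of Hadha to Hadhb was 0.667, 0.658, 0.670 and 0.622 in wild type and 0.557, 0.533, 0.585 and 0.596 in knockout hearts, lower in every knockout heart by a small amount (-0.20 ± 0.04, exact permutation p = 0.0286, adjusted 0.0714). Cpt1a made up 7.56% ± 0.805 (SD, n = 4) of the summed Cpt1a and Cpt1b level in wild type and 9.38% ± 0.991 (SD, n = 4) in knockout hearts (exact permutation p = 0.0571, adjusted 0.0952). The ratios of Acsl4 to Acsl1 and of Ucp2 to Ucp3 overlapped widely (exact permutation p = 0.629 and 0.343, adjusted 0.629 and 0.429). None of the 5 ratios therefore passed an adjusted threshold of 0.05 with all hearts. With 2 ratios at the smallest p, neither could reach an adjusted p below 0.0714, whatever the size of its difference. Without knockout replicate 1 the first 3 ratios shared the smallest p, which gave each an adjusted p of 0.0476. The difference of Hadha to Hadhb was -0.20 with and without that heart, so its lower adjusted p there does not mark a larger difference.

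**Figure D3:**
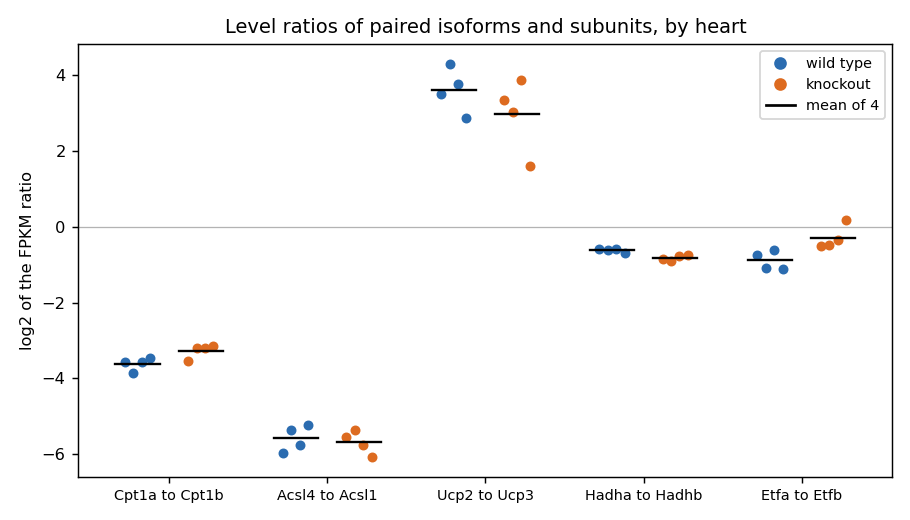
Log2 of the FPKM ratio of 5 pairs of genes in each heart; each point is 1 heart (wild type blue, knockout orange), with a black line at the mean of each group. The groups separate for Hadha to Hadhb and for Etfa to Etfb, with mean ratios of 0.654 and 0.568 and of 0.545 and 0.834, and overlap for the other ratios.

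The genes varied together between hearts of a group. The median log2 ratio of the 38 genes to their wild type means was 0.13, -0.11, -0.01 and -0.00 in wild type replicates 1 to 4 and -0.17, -0.17, -0.01 and 0.34 in knockout replicates 1 to 4. Knockout replicates 1 and 2 were thus at the low end and knockout replicate 4 at the high end of all 8 hearts. Of the 38 genes, 27 (71.1%) had their highest knockout value in replicate 4, against 35.5% of all tested genes. The coefficient of variation was larger in the knockout than in the wild type group for 32 of 38 genes, against 66.3% of all tested genes. Summed over the 13 genes of mitochondrial beta oxidation, the level was 5870, 4870, 5145 and 4911 FPKM in wild type and 4549, 4371, 5413 and 6316 FPKM in knockout hearts, with group means of 5199 and 5162 FPKM.

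Cpt2, Etfb and Ucp2 did not follow that order: in knockout replicate 4, where most of the set was highest, each had its lowest value of all 8 hearts. The same held for Acsl5, which was not called (6.68 FPKM in that heart). In all, 5 members had their lowest knockout value there. Without knockout replicate 4, 13 of the 38 genes lay above 0 and 25 below, and the calls were again 1 raised and 5 lowered, of which 5 were the same genes; Ech1 was called in place of Ucp2. Without knockout replicate 1, 4 genes rose (Acadl, Acsl4, Cpt1a and Ehhadh) and 3 fell (Acaa1a, Cpt2 and Etfb).

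**Figure D4:**
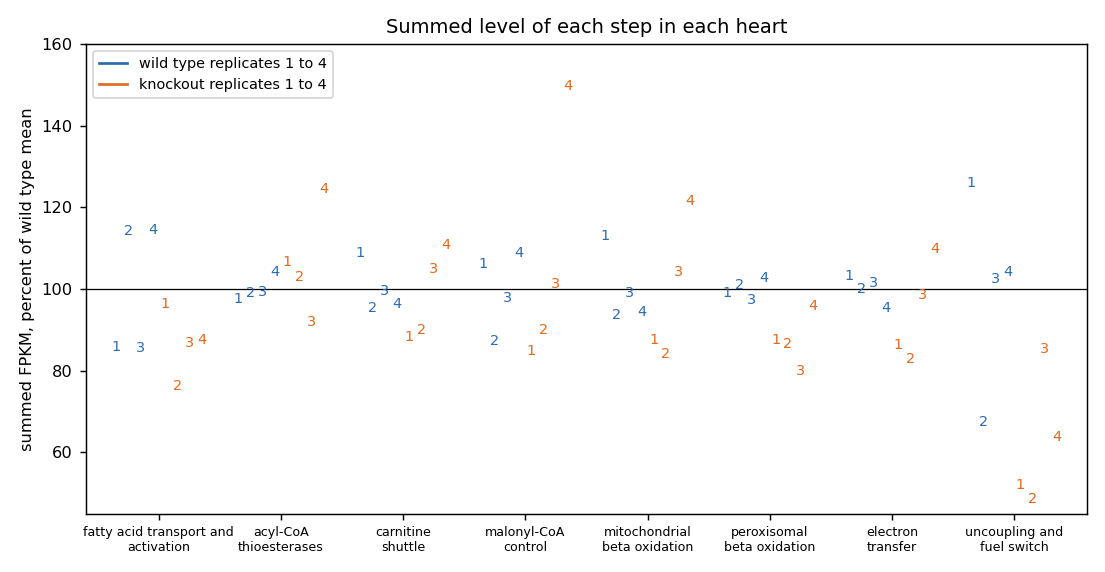
Summed FPKM of the genes of each step in each heart, as percent of the wild type mean of that step; each numeral is the replicate number of 1 heart (wild type blue, knockout orange), and the vertical axis does not start at 0. Knockout replicate 4 is the highest knockout heart in 6 of the 8 steps, and the uncoupling and fuel switch genes sum to 62.4% of wild type in the knockout mean.

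Base composition of the transcripts moved with the changes. Across the 38 genes, the Spearman correlation between the GC content of the longest coding transcript and the log2 change was -0.476, against -0.154 over 11270 tested genes, and for transcript length it was 0.12 and 0.239. These points share the same 8 libraries, so the values are descriptions. The 5 lowered genes had a GC content of 52.6% to 59.4%, within the 44.4% to 61.0% of the 32 genes that were not called, and the raised gene Acsl4 had 39.0%. The part of base composition in these changes was not tested.

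Beyond the 38 genes, 6 further lists of the pathway held 103 tested genes, of which 13 were called raised (12.6%, against 6.15% of all tested genes) and 2 lowered (1.94%, against 6.01%), with a median log2 change of 0.10 against -0.01. The lists were chosen with earlier results of these data known, so nothing is read from these shares. The list of other beta oxidation and acyl-CoA dehydrogenase genes is wider than its name. Among its 28 genes, 2 rose and 0 fell. Acss1, a mitochondrial acetyl-CoA synthetase and so outside that name, was 1 of the 2. It rose from 51.3 ± 10.6 to 84.8 ± 24.1 FPKM (adjusted p = 0.0488). Acss1 stayed called only when the heart left out was knockout replicate 1 (largest adjusted p 0.137). Of 15 uptake, activation and thioesterase genes, Fabp5, an endothelial and macrophage fatty acid carrier, rose from 176 ± 20.8 to 279 ± 30.7 FPKM (adjusted p = 0.00628). In the same list Acot11 rose (log2 change 0.56 ± 0.13, adjusted p = 0.0210) and Tcf15, a transcription factor of heart capillaries, fell to 2.86 ± 0.684 FPKM from 11.6 ± 1.74 FPKM. Leaving out any of wild type hearts 2, 3 and 4 or knockout heart 2 ended the call of Acot11 (adjusted p up to 0.0622). The lipid uptake genes Cd36, Lpl, Gpihbp1 and Fabp4 were not called (adjusted p 0.112 to 0.958).

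Of 17 triglyceride and lipid droplet genes, 2 rose and 0 fell. Hilpda, an inhibitor of the triglyceride lipase, rose (log2 change 1.11 ± 0.15, adjusted p = 0.00233), and so did Abhd5, the activator of that lipase (log2 change 0.43 ± 0.11, adjusted p = 0.0400). Abhd5 stayed called only when the heart left out was knockout replicate 1 or 4 (largest adjusted p 0.121). Of 5 ketone body genes, Oxct1 rose and 0 fell, leaving aside Bdh1. The list did not move only upward: 1 gene that was not called had a log2 change of -1.47, with every knockout heart below every wild type heart. Oxct1, the enzyme that activates acetoacetate for use as fuel, was at 127, 117, 137 and 68.1 FPKM in wild type and 264, 277, 202 and 307 FPKM in knockout hearts, without overlap (log2 change 1.25 ± 0.21, adjusted p = 0.00745). Bdh1, which interconverts the ketone bodies, was at 0.157 to 0.437 FPKM in wild type and 0.515 to 3.38 FPKM in knockout hearts. It reached the filter of 1 FPKM only through its knockout values and so had to differ, and its call, which is among the 13 of the 6 lists, is not counted here as a rise.

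Among 21 transcriptional regulators, 2 rose and 1 fell. The nuclear receptor gene Esrrb rose from 2.35 ± 0.504 to 5.11 ± 0.616 FPKM and Hif1a from 23.5 ± 2.16 to 39.4 ± 3.70 FPKM, while Pparg fell from 8.17 ± 1.08 to 4.82 ± 0.699 FPKM (adjusted p = 0.00892). The regulators named most often for this pathway in heart, Ppara, Ppargc1a and Esrra, were not called: Ppara was at 2.39 to 5.59 FPKM in wild type and 4.64 to 7.22 FPKM in knockout hearts (adjusted p = 0.113), Ppargc1a had a log2 change of 0.08 ± 0.27, and Esrra one of 0.02 ± 0.11. Of 18 genes of malonyl-CoA, AMPK and pyruvate dehydrogenase control, 3 rose and 0 fell: the glucose transporter Slc2a1, and Pdk1 and Pdk3, which encode 2 other pyruvate dehydrogenase kinases. Pdk1 rose from 18.9 ± 2.08 to 36.1 ± 6.06 FPKM (adjusted p = 0.00273) and Pdk3 from 4.79 ± 0.573 to 6.95 ± 0.956 FPKM (adjusted p = 0.0281). Leaving out any of wild type hearts 1, 3 and 4 or knockout hearts 2 and 3 ended the call of Pdk3 (adjusted p up to 0.0784).

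Other mitochondrial genes were called at shares of 9.09% (complexes I to V) and 23.1% (citric acid cycle), against 12.2% of all tested genes. Of 22 subunits of complexes I to V, 1 rose (Atp5a1, adjusted p = 0.0484) and 1 fell (Cox6c, adjusted p = 0.0227), with a median log2 change of 0.06. Of 13 citric acid cycle enzymes, 2 rose, among them Ogdh, and 1 fell (Fh1), with a median of 0.14. The call of Fh1 held in all 8 omissions. It was lost at a minimum change of 1.5-fold, and also under the cardiomyocyte marker scaling and with the replicate number as a block (limma adjusted p up to 0.163). Atp5a1 and Ogdh stayed called only when the heart left out was wild type replicate 1, and Cox6c only when it was wild type replicate 3 or knockout replicate 1 or 4 (largest adjusted p 0.129, 0.137 and 0.0797).

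Markers of cell types that could hold these transcripts gave the following levels. Of 14 cardiomyocyte markers, 1 rose (Mybpc3) and 1 fell (Tnni3), and their sum was 47790 to 53750 FPKM in wild type and 41190 to 51500 FPKM in knockout hearts, lowest in knockout replicate 4. Their part in the values of the set was not tested beyond the cardiomyocyte marker scaling. Of 12 endothelial markers 4 fell (Tie1, Ushbp1, Tek and Robo4) and 0 rose, with sums of 594 to 712 and 522 to 625 FPKM, and of 10 fibroblast markers 3 fell (Dcn, Lum and Dpt) and 0 rose, with sums of 1452 to 1736 and 902 to 1509 FPKM. Of 7 tested leukocyte markers Lyz2 rose and 0 fell. Their log2 changes were above 0 for 3 and below 0 for 4, with a median of -0.01. The sums over 11 leukocyte markers, tested or not, were 113 to 130 and 137 to 154 FPKM. The T cell marker Cd3e, Ly6g and Ptprc were below a mean of 1 FPKM. Of 9 smooth muscle and pericyte markers Tagln rose, with sums of 711 to 1160 and 696 to 981 FPKM.

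Brown fat uses the same pathway. Its defining gene Ucp1 was uneven in both groups, at 9.53, 0.13, 0.70 and 10.1 FPKM in wild type and 2.68, 15.4, 11.4 and 0 FPKM in knockout hearts, and the 8 adipocyte markers summed to 29.6 to 63.0 and 34.9 to 90.2 FPKM. Of 5 tested adipocyte markers 0 were called, and Plin1, Lep and Retn were below a mean of 1 FPKM. In knockout replicate 4, where most of the set was highest, Ucp1 was listed at 0. The adipocyte markers summed to 35.4 FPKM in that heart and to 34.9, 90.2 and 61.3 FPKM in knockout replicates 1 to 3. The part of fat tissue in the values of the set was not tested. Airway genes were seen in wild type replicate 4, where the lung markers summed to 1244 FPKM against at most 0.481 FPKM in the other hearts. Without that heart Acsl4, Cpt2 and Etfb were called.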

How the data were processed

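Per the labels' protocols, heart RNA was purified with a Qiagen column kit and TruSeq libraries were prepared from it (8 hearts). The submitters' processing notes name TopHat2, Cufflinks and mm10, without versions. Each library has 1 column in the deposited table. Its values were read as FPKM that the authors quantile normalised, since Cufflinks gives FPKM and the columns share the same value at each of the 39 highest ranks. Depth and counting error cannot be recovered, and neither annotation nor strandedness is given in the sources used here.

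Values were taken as log2(FPKM + 1) for genes whose mean reached 1 FPKM and fitted in limma 3.58.1 under R 4.3.3 (lmFit, eBayes with trend and robust, no covariate), with Benjamini-Hochberg adjustment over 11390 genes. Groups and replicate numbers came from the titles. The members, lists, pairs and motifs were chosen with earlier results of these data known. Values in every heart are given for called members, for the highest member of each step, and for Cpt1a, Cpt1b, Cpt2, Acadm, Acadvl, Hadha and Pdk4; of each other list, up to 4 called genes with the smallest p are named, apart from a few genes not reported here. Members or genes shown beyond this rule, among them Ech1, Acsl1 and Acadl in the plot of levels, and the checks of GC content, length and shared words, were chosen after values were seen. Coordinates and transcripts came from GENCODE M21 on GRCm38 (mm10). The fit was tested on simulated data before use. Alternatives changed the pseudocount, filter, scaling, variance model, weights, threshold and replicate block, or left out hearts. Tables and figures were made with Python 3.11.15, pandas 2.3.3 and matplotlib 3.10.9.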

Additional observations from a re-analysis of the deposited data

Results flagged for a closer look

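In 3 of 76 groups of 4 hearts (38 genes in each genotype), 1 value lay far from the others by Dixon's test at the 95% level, where chance flags about 1 in 20 groups. Acot7 was at 33.5 FPKM in knockout replicate 1, with the other knockout hearts at 28.8 FPKM or less. Acads was at 148 FPKM in knockout replicate 4 and at most 107 FPKM in the others. In the wild type group, Eci1 was at 208 FPKM in replicate 2, with no other heart above 197 FPKM.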

How the results depend on the processing

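Of the 6 calls, those of Cpt2 and Etfb held in all 8 omissions of a heart, with log2 changes of -0.64 to -0.47 and -0.47 to -0.31 over all 18 alternatives. At a minimum change of 1.5-fold 37 genes were called in all, and 0 members rose or fell. The replicate numbers share no stated litter or day, and same-numbered hearts correlated at -0.226, 0.0093, 0.102 and -0.0966 in their deviations, so they were not taken as pairs: the replicate block gave 613 calls in all, with 0 members raised and 2 lowered (Cpt2 and Ucp2; Etfb adjusted p = 0.0504). With 1 heart left out, between 574 genes (when wild type replicate 2 was omitted) and 1819 genes (when knockout replicate 1 was omitted) were called in all, 0 to 4 members rose and 2 to 5 fell. The number raised was also 0 with a mean of at least 5 FPKM, which removes Acsl4, and without both replicates 4. The number lowered was 3 with no filter and 2 with the cardiomyocyte marker scaling, but 6 with a mean of at least 5 FPKM (adding Ech1) and 7 with array weights (adding Ech1 and Slc27a1), which gave 2028 calls in all. Without 1 heart, the difference of log2 ratios ran from 0.26 to 0.43 for Cpt1a to Cpt1b, from -0.23 to -0.18 for Hadha to Hadhb and from 0.44 to 0.69 for Etfa to Etfb, with an adjusted p down to 0.0476. Uncalled members changed sign while uncalled in 36 of 575 fits. Why these values moved was not tested, beyond the fewer samples or genes of each fit. Quantile normalisation hides depth, so the precision of low genes such as Ehhadh and Acsl4 is known only from the spread between hearts.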
